A study of Mus musculus with 6 samples.

Results

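Lysosomal acidification and hydrolase genes were examined in sorted cells, named OB progenitors by the study, of control and TgAPPsweOCN mice. The 36 members, of 17469 genes in the table, were taken by gene symbol from a list that was drawn up with earlier results of these data known. They comprised 15 proton pump genes, 7 lysosomal membrane genes and 14 genes of the lumen, of which 11 encode hydrolases and 3 encode other lumenal proteins (Psap, Npc2 and Grn), marked as cofactors in the plots. The pump genes were 5 subunits of the membrane sector V0, 8 subunits of the cytosolic sector V1 and 2 accessory subunits. Cathepsins were not among the members.

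RNA-seq was performed on bone marrow stromal cells (BMSCs) from mice of 6 months, with 3 libraries per genotype. Control mice carried Ocn-Cre and Ai9. Ocn-Cre places Cre under the promoter of osteocalcin, a gene of mature osteoblasts, and Ai9 is a reporter that turns on the red protein tdTomato where Cre has acted. TgAPPswe;Ocn-Cre;Ai9 mice, called TgAPPsweOCN here, carried both of these alleles plus a transgene in which Cre removes a stop and human APP with the Swedish mutation is then expressed. Marrow cells were grown attached, passaged, and sorted for the Ai9 signal before RNA was made, and no mouse received a treatment. The study names mice as the unit for values of this experiment, but no source used here ties each library to 1 mouse.

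The lysosome is the compartment in which cells break down proteins, lipids, glycans and nucleic acids. Its interior is acidified by the vacuolar ATPase, in which V1 splits ATP and V0 carries protons across the membrane. Hydrolases are made in the endoplasmic reticulum, are mostly carried by mannose 6-phosphate receptors, and work best at acid pH. Small cofactors such as saposins lift lipids out of membranes for them. Many of these genes share a promoter motif bound by TFEB and its relatives TFE3, MITF and TFEC.

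Library totals were 19340810 to 19801060 estimated counts in control and 21677461 to 22037840 in TgAPPsweOCN. All 36 members were among the 12701 genes tested, with at least 1014 counts in every library (the lowest was for Gla). The members were highly expressed genes, since 28 of them lay in the top 10% of tested genes by mean FPKM. Mouse App itself was at 275 to 281 FPKM in control and 325 to 333 FPKM in TgAPPsweOCN (log2 fold change 0.45, edgeR adjusted p = 7.87e-05), and how reads of the human transgene were assigned is not known. Of the 15 stromal and osteoblast markers, few were abundant. Their median was 1.52 to 1.73 FPKM in control and 1.27 to 1.90 FPKM in TgAPPsweOCN, and Bglap, which encodes osteocalcin, was at 0.35 to 1.25 and at 0 to 0.49 FPKM. The 15 myeloid markers had a median of 407 to 453 FPKM in control and 491 to 530 FPKM in TgAPPsweOCN, and none was at 0. Markers of the labelled osteoblast lineage were thus far lower in level than those of myeloid cells.

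Library 3 of each genotype often held the middle value of its group. Taking genes whose counts reached 100 in each library and spanned at least 1.5 times within the genotype, it did so for 84.8% of 244 genes in control and 93.8% of 340 genes in TgAPPsweOCN. The reason was not tested, and p-values are too small if these libraries are not independent of the other libraries of their genotype.

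Levels are given as the deposited FPKM (fragments scaled to transcript length and library size). The test used estimated counts after TMM scaling, which sets the bulk of genes level between libraries. These scales differ. Over all genes tested, the log2 fold change had a median of -0.02 after TMM, -0.23 when libraries were scaled by size alone, and -0.23 in the deposited FPKM. A gene whose FPKM were lower by about that much thus lies near 0 in the test. Rose and fell refer below to an adjusted p of 0.05 or less in edgeR's quasi-likelihood test with TMM, over all genes tested.

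Of the 36 members, 13 rose, 13 fell and 10 did not pass the test, while 32.5% of all genes tested rose and 31.5% fell (64.0% together). None of the members rose by a log2 fold change of 1 or more, and 4 fell by that much (8.90% and 9.20% of all genes did so). These totals depended on the scaling and on the libraries. With scaling by library size only, 4 members rose and 21 fell, and of all genes tested, 2806 rose and 5826 fell instead of 4122 and 4007. Without both libraries numbered 3, 6 members rose and 11 fell, against 3019 and 2794 of all genes tested. The counts differed between classes. Of the pump genes 10 of 15 rose and 1 fell, of the membrane genes none rose and 3 of 7 fell, and of the lumenal genes 3 of 14 rose and 9 fell. The median log2 fold change was 0.30 for the pump, -0.14 for the membrane genes and -0.37 for the lumenal genes. In tissue or cell mixtures such as these, fewer cells of a type and less RNA per cell cannot be told apart.

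**Figure D1:**
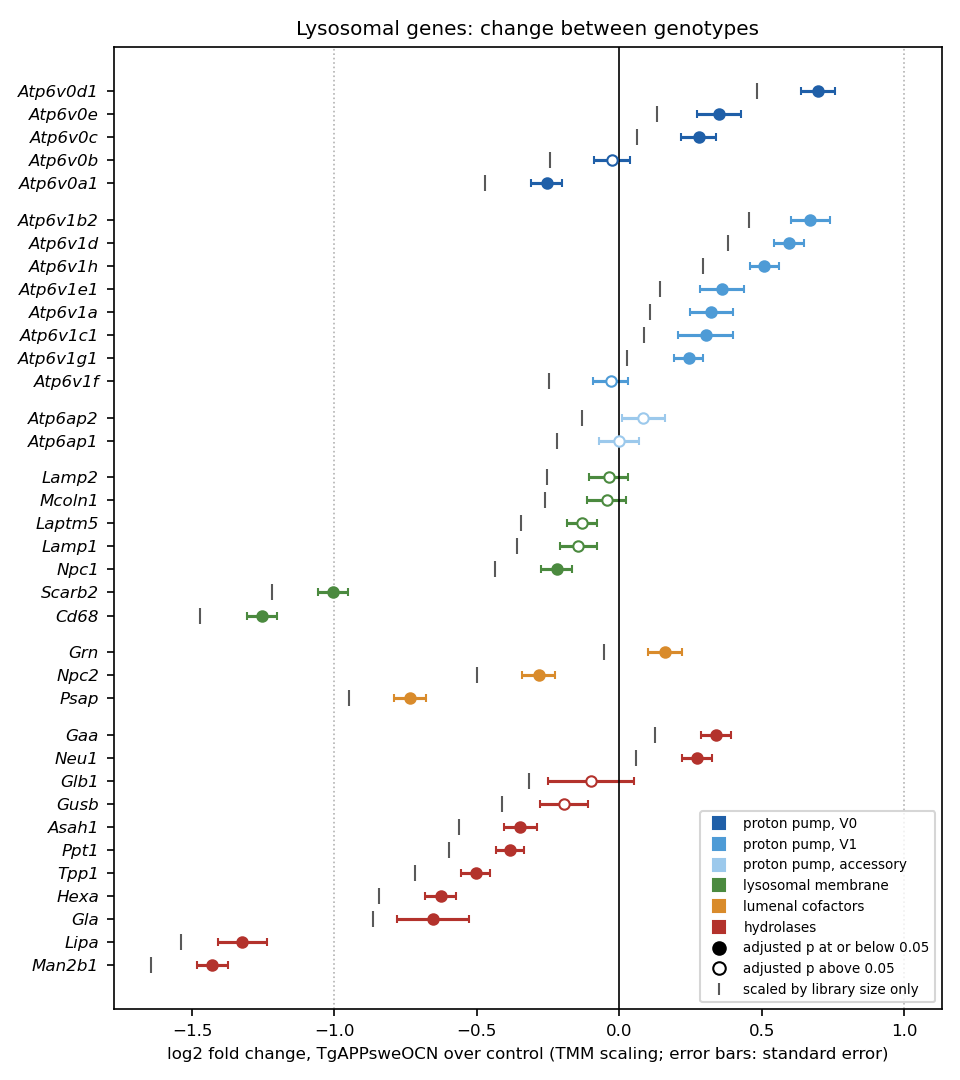
Each point gives a member's log2 fold change (TgAPPsweOCN over control, x axis) with its standard error, and members are grouped by role and sorted. Filled points passed the test at an adjusted p of 0.05, open points did not, and grey ticks give the value with scaling by library size only, under which 9 of 26 calls are lost and 8 further members pass; 10 of 15 pump genes lie above 0 and past the test, and Man2b1 is lowest at -1.43.

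Within a library, the ratio of pump to lumenal genes does not depend on any scaling between libraries. The geometric mean FPKM of the 15 pump genes divided by that of the 14 lumenal genes was 0.746, 0.790 and 0.768 in control libraries 1, 2 and 3, and 1.30, 1.18 and 1.23 in the TgAPPsweOCN libraries. The groups did not overlap, and the pump lay below the lumenal genes in every control library and above them in every TgAPPsweOCN library. Against the 11 hydrolases alone the ratio was 1.15 to 1.21 in control and 1.87 to 2.05 in TgAPPsweOCN. No test was run on these ratios, since the lists were chosen with earlier results known.

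On the FPKM scale most of this difference sat in the lumenal genes. Their geometric mean was 202 ± 1.90 FPKM in control and 131 ± 2.74 FPKM in TgAPPsweOCN (SD, n = 3 each). That of the pump genes was 155 ± 5.12 and 161 ± 4.49 FPKM, and its libraries overlapped. On the TMM scale the difference was shared between a rise of the pump and a fall of the lumenal genes. With scaling by library size only, 4 of 15 pump genes rose, 4 fell, and the pump median was 0.09, while the lumenal median was -0.58. The distance between the medians was 0.67 after TMM, and it ranged from 0.61 to 0.72 on the log2 scale over 15 alternative settings.

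**Figure D2:**
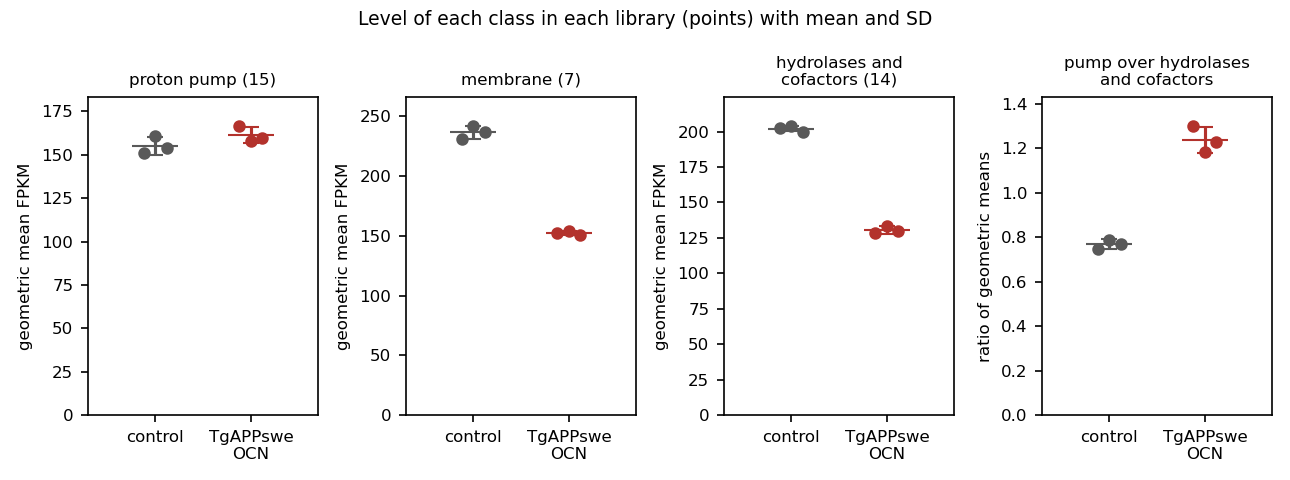
The first 3 panels show the geometric mean FPKM of the pump, membrane and lumenal genes in each library (points), with the mean and SD over 3 libraries, and the last panel shows the ratio of pump to lumenal genes. The ratio was 0.768 ± 0.0217 in control and 1.24 ± 0.0588 in TgAPPsweOCN (SD, n = 3), while the pump level itself overlapped between the genotypes on this scale.

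In the V0 sector 3 of 5 genes rose and 1 fell, and without both libraries numbered 3 only Atp6v0d1 passed. Atp6v0d1 (NCBI Gene 11972), the subunit d that couples V0 to the central stalk, was at 117, 116 and 114 FPKM in control libraries 1, 2 and 3, and at 170, 160.4 and 154 FPKM in the TgAPPsweOCN libraries. Every TgAPPsweOCN library was above every control library. Its mean rose from 116 ± 1.56 to 162 ± 7.68 FPKM (SD, n = 3 each), with a log2 fold change of 0.70 (SE 0.06, edgeR adjusted p = 1.82e-05), the largest rise of any member.

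Atp6v0a1 (NCBI Gene 11975), a form of the subunit a that forms the proton path, went the other way. It was at 139, 151 and 142 FPKM in control and at 102, 104 and 106 FPKM in TgAPPsweOCN. All TgAPPsweOCN libraries were lower. The mean was 144 ± 5.83 against 104 ± 1.86 FPKM (log2 fold change -0.25, SE 0.05, edgeR adjusted p = 0.00314), and without the libraries numbered 3 the adjusted p was 0.0547. Among the 15 pump members, Atp6v0a1 alone fell after TMM.

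Among the ring subunits, Atp6v0c rose by 0.28 and Atp6v0b was at -0.03 on the log2 scale (edgeR adjusted p = 0.731). The small subunit Atp6v0e rose by 0.35. The FPKM of Atp6v0c and Atp6v0e overlapped between the genotypes, and with scaling by library size only neither passed the test. Without the libraries numbered 3 neither passed either (edgeR adjusted p = 0.0899 and 0.0615).

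In the V1 sector 7 of 8 genes rose and none fell, and without both libraries numbered 3, 4 rose. Atp6v1b2 (NCBI Gene 11966), a B subunit of the ring that binds ATP, was at 157, 181 and 162 FPKM in control and at 232, 226 and 228 FPKM in TgAPPsweOCN. The genotypes did not overlap. The mean was 167 ± 12.3 FPKM in control and 229 ± 3.31 FPKM in TgAPPsweOCN, with a log2 fold change of 0.67 (SE 0.07, edgeR adjusted p = 4.00e-05).

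The stalk subunit Atp6v1d rose by 0.60, from 72.5 ± 1.78 to 94.3 ± 0.817 FPKM, and the regulatory subunit Atp6v1h rose by 0.51, from 43.6 ± 0.739 to 52.5 ± 0.390 FPKM. With Atp6v0d1 and Atp6v1b2, they were the 4 pump genes that rose under every one of 15 alternative settings. The catalytic subunit Atp6v1a rose by 0.32, and the stator subunits Atp6v1c1, Atp6v1e1 and Atp6v1g1 rose by 0.30, 0.36 and 0.24. Those 4 calls were lost with scaling by library size only. Without the libraries numbered 3, Atp6v1a, Atp6v1c1 and Atp6v1g1 did not pass (edgeR adjusted p = 0.0684, 0.130 and 0.0907). Atp6v1c1 (edgeR adjusted p = 0.0226) also lost its call when control library 1 or 3, or TgAPPsweOCN library 1 or 3, was left out, with an adjusted p of 0.0524 to 0.0652. Atp6v1f, a stalk subunit, was at -0.03 and did not pass.

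In the whole pump, 5 genes rose and none fell without both libraries numbered 3. The V1 genes stood higher relative to V0 in TgAPPsweOCN. The ratio of their geometric means within a library was 0.418 to 0.444 in control and 0.476 to 0.487 in TgAPPsweOCN, with no overlap. The accessory subunits, which help the pump assemble, did not pass the test. Atp6ap1 was at 0.00 on the log2 scale and Atp6ap2 at 0.08 (edgeR adjusted p = 0.986 and 0.355). Under library size scaling alone Atp6ap1 was at -0.22 and passed.

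The pump also has alternative subunits encoded by other genes, which were not members. Among these, 8 were in the count file and 5 of them were tested. Of those 5, 1 rose and 3 fell (32.5% and 31.5% of all genes tested). Tcirg1, the a3 subunit needed in osteoclasts and abundant in macrophages, was at 252, 258 and 249 FPKM in control and at 148, 149 and 154 FPKM in TgAPPsweOCN (log2 fold change -0.53, edgeR adjusted p = 3.41e-05). Atp6v0a2, the a2 subunit found mainly on Golgi and endosomes, rose from 11.1 ± 0.448 to 16.2 ± 0.701 FPKM (log2 fold change 0.76, edgeR adjusted p = 6.72e-06). The sum of the forms a1, a2 and a3 was 402 to 420.1 FPKM in control and 265 to 276 FPKM in TgAPPsweOCN. Within that sum the share of a3 was 61.5% to 62.6% in control and 55.1% to 55.8% in TgAPPsweOCN, and that of a2 was 2.64% to 2.85% and 5.84% to 6.25%. The summed level of subunit a was thus lower in FPKM, with a smaller share of a3 and a larger share of a2.

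Atp6v0d2, the d2 form known from osteoclasts and macrophages, was at 23.3, 43.6 and 37.8 FPKM in control and at 5.05, 5.83 and 5.23 FPKM in TgAPPsweOCN. All TgAPPsweOCN libraries were far below the lowest control library. This was a log2 fold change of -2.38 (SE 0.20, edgeR adjusted p = 1.64e-05). The share of d2 in the sum of d1 and d2 was 16.6% to 27.3% in control and 2.89% to 3.51% in TgAPPsweOCN. The sum itself was 140.1 to 159.9 FPKM in control and 159.7 to 174.8 FPKM in TgAPPsweOCN, so the genotypes overlapped. Atp6v1g2 fell from 8.18 ± 0.524 to 2.73 ± 0.251 FPKM (log2 fold change -1.36, edgeR adjusted p = 1.74e-05), and its share of G1 and G2 was 4.30% to 4.63% in control and 1.36% to 1.60% in TgAPPsweOCN. Atp6v0e2 was at 0.427 ± 0.122 and 0.233 ± 0.0252 FPKM and did not pass the test (edgeR adjusted p = 0.137). Atp6v0a4, Atp6v1b1 and Atp6v1c2 were at 0.09 FPKM or less in every library and were not tested, and Atp6v1e2 and Atp6v1g3 were not analysed here.

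**Figure D3:**
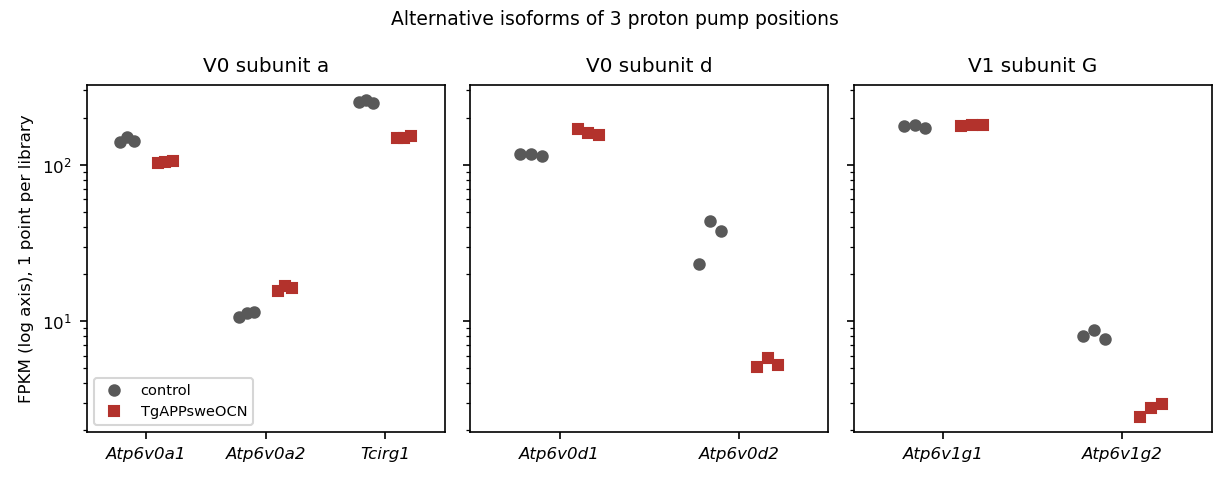
FPKM (log axis) of the genes for V0 subunit a, V0 subunit d and V1 subunit G are plotted for each library, with circles for control and squares for TgAPPsweOCN. Atp6v0d1 and Atp6v0d2 separate in opposite directions, Atp6v0a2 is higher while Atp6v0a1 and Tcirg1 are lower, and Atp6v1g1 overlaps.

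Markers of osteoclasts, which are rich in the pump, did not move as 1 group. Of 9 such markers 7 were tested, 3 rose and 3 fell (32.5% and 31.5% of all genes tested). The summed level of the 9 markers was 37.4 to 40.9 FPKM in control and 116 to 237 FPKM in TgAPPsweOCN. Nfatc1 gave most of the sum in control, at 22.8 to 24.4 FPKM, and Mmp9 gave most of it in TgAPPsweOCN, at 69.3 to 169 FPKM against 1.31 to 2.74 FPKM in control. Calcr, the calcitonin receptor, was at 0 in every control library and at most 0.01 FPKM in TgAPPsweOCN. The part of these cells in the subunit values was not tested.

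Genes that assemble or regulate the pump were low in level, with a control median of 12.6 FPKM. Of 8 genes 4 rose and 1 fell (32.5% and 31.5% of all genes tested). Vma21, a chaperone of V0 assembly in the endoplasmic reticulum, rose by 0.73 on the log2 scale. Tmem199, also an assembly factor, and Tmem9, which binds the pump, rose by 0.61 and 0.52. Rogdi, a partner of the complexes that bring V1 back to V0, fell by 0.97, from 26.1 ± 2.11 to 11.5 ± 0.873 FPKM.

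None of the 7 membrane members rose, and 3 fell (2 without both libraries numbered 3). Cd68 (NCBI Gene 12514), a heavily glycosylated protein of macrophage endosomes and lysosomes, was at 1247, 1296 and 1263 FPKM in control and at 457, 463 and 452 FPKM in TgAPPsweOCN. Every TgAPPsweOCN library was far below every control library. The mean fell from 1268 ± 25.0 to 458 ± 5.95 FPKM, with a log2 fold change of -1.26 (SE 0.05, edgeR adjusted p = 3.37e-07).

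Scarb2 (NCBI Gene 12492), also called LIMP-2, is a lysosomal membrane protein that also acts as a sorting receptor. It was at 53.9, 57.0 and 57.6 FPKM in control and at 23.8, 24.4 and 24.2 FPKM in TgAPPsweOCN. The genotypes did not overlap. Its log2 fold change was -1.0 (SE 0.05, edgeR adjusted p = 9.70e-07). Npc1, which moves cholesterol out through the lysosomal membrane, fell by 0.22, from 56.2 ± 1.71 to 41.5 ± 2.03 FPKM, and did not pass without the libraries numbered 3 (edgeR adjusted p = 0.0952).

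The major structural protein Lamp1 (NCBI Gene 16783) was at 859, 851 and 877 FPKM in control and at 710, 642 and 663 FPKM in TgAPPsweOCN. Although these FPKM did not overlap, its log2 fold change after TMM was -0.14 (SE 0.07, edgeR adjusted p = 0.0831). It passed at -0.20 when TgAPPsweOCN library 1 was left out, and at -0.36 under library size scaling. Lamp2, Laptm5 and the calcium channel Mcoln1 behaved alike, with FPKM below control in every library and log2 fold changes of -0.04, -0.13 and -0.04 that did not pass, although Laptm5 did with DESeq2 (adjusted p = 0.0444) and with a filter of 10 counts per library (edgeR adjusted p = 0.0496). All 7 membrane members had lower FPKM in every TgAPPsweOCN library than in any control library, as did 48.3% of all genes tested (24.0% were higher in this way), and all 7 fell with scaling by library size only.

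Cd68 and Laptm5 are genes of blood cells, so the myeloid markers bear on them. Of the 15 markers 7 rose and 6 fell (32.5% and 31.5% of all genes tested). The summed level of the 15 markers was 22681 to 24412 FPKM in control and 18619 to 22498 FPKM in TgAPPsweOCN. Lyz2 was the largest part of it, at 8888 to 9263 and 5379 to 8724 FPKM, and did not pass (edgeR adjusted p = 0.418). The median of the markers was 407 to 453 FPKM in control and 491 to 530 FPKM in TgAPPsweOCN. On the log2 scale Csf1r fell by 1.49, Mrc1 fell by 2.38 and Adgre1 rose by 1.89. The part of myeloid cells in the Cd68 value was not tested.

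**Figure D4:**
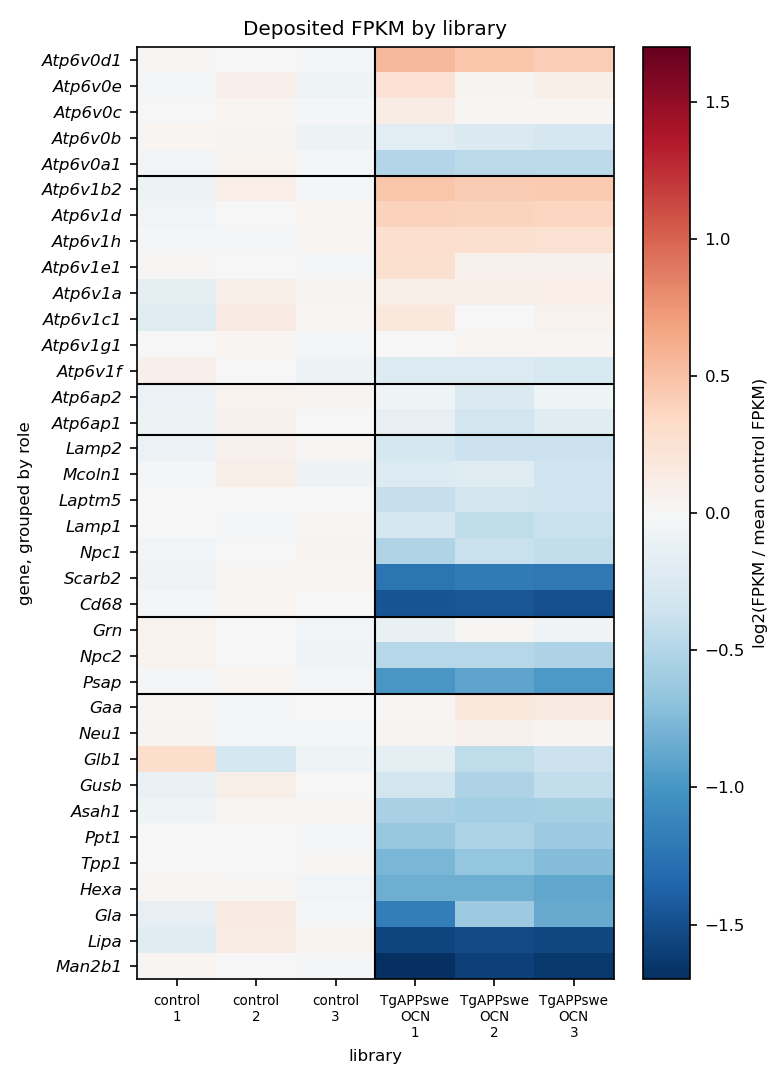
Colours give log2 of FPKM over the mean control FPKM for each of the 36 members (y axis, grouped by role) in each of the 6 libraries (x axis). On this unadjusted scale 7 members lie above all control libraries in every TgAPPsweOCN library and 21 lie below (24.0% and 48.3% of all genes tested), and the libraries of a genotype resemble each other except for genes such as Glb1, Gla and Lipa.

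Of the lumenal genes, 3 rose and 9 fell, and the largest changes were falls. Without both libraries numbered 3, 1 rose and 9 fell. Man2b1 (NCBI Gene 17159), the acid alpha-mannosidase that trims glycans of glycoproteins, was at 362, 351 and 347 FPKM in control and at 109, 117 and 114 FPKM in TgAPPsweOCN. The genotypes were far apart. The mean was 354 ± 7.95 against 113 ± 4.23 FPKM, with a log2 fold change of -1.43 (SE 0.05, edgeR adjusted p = 2.05e-07), the largest fall of any member.

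Lipa (NCBI Gene 16889), the acid lipase that frees cholesterol and fatty acids from lipoprotein lipids, was at 402, 508 and 481 FPKM in control and at 158, 162 and 159 FPKM in TgAPPsweOCN. Control library 1 was the lowest of its group, yet still well above all TgAPPsweOCN libraries. The log2 fold change was -1.32 (SE 0.09, edgeR adjusted p = 3.40e-06). Npc2, which takes the cholesterol freed by Lipa and hands it to Npc1, fell by 0.28, from 301 ± 12.5 to 213 ± 3.44 FPKM.

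Psap (NCBI Gene 19156), the precursor of the saposins that serve several sphingolipid hydrolases, was the most abundant member. It fell from 2626 ± 60.1 to 1356 ± 48.2 FPKM, with a log2 fold change of -0.73 (SE 0.06, edgeR adjusted p = 8.68e-06). Hydrolases of glycosphingolipids and ceramide fell with it. Hexa, a subunit of beta-hexosaminidase, fell by 0.63, Gla, the alpha-galactosidase lacking in Fabry disease, by 0.65, and Asah1, the acid ceramidase, by 0.35. Gla ranged from 31.8 to 39.1 FPKM in control and from 15.5 to 22.8 FPKM in TgAPPsweOCN, without overlap.

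The enzymes lost in infantile and late infantile Batten disease fell as well. Tpp1, a peptidase, fell by 0.50, from 126 ± 1.35 to 76.5 ± 3.31 FPKM. Ppt1, which removes fatty acids from proteins, fell by 0.38, from 89.8 ± 1.17 to 59.2 ± 2.28 FPKM. All 9 lumenal genes that fell did so in each of 15 alternative settings.

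Gaa (NCBI Gene 14387), the acid glucosidase that breaks down glycogen, was at 56.1, 54.8 and 55.1 FPKM in control and at 56.2, 62.7 and 61.6 FPKM in TgAPPsweOCN. The lowest TgAPPsweOCN library lay just above the highest control library. Its log2 fold change was 0.34 (SE 0.05, edgeR adjusted p = 0.000609), and 0.12 without a pass under scaling by library size only (edgeR adjusted p = 0.0853).

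Neu1 (NCBI Gene 18010), the lysosomal sialidase, was at 37.5, 35.9 and 35.5 FPKM in control and at 37.6, 38.2 and 37.5 FPKM in TgAPPsweOCN. These levels nearly met. It rose by 0.27 on the log2 scale (SE 0.05, edgeR adjusted p = 0.00169), and it did not pass under scaling by library size only, at 0.06, or without the libraries numbered 3 (edgeR adjusted p = 0.0551).

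Grn, the progranulin precursor of lysosomal granulins, was at 1190 ± 43.6 FPKM in control and 1146 ± 53.9 FPKM in TgAPPsweOCN. Its log2 fold change of 0.16 passed the test (edgeR adjusted p = 0.0409) but turned to -0.05 under scaling by library size only. The direction thus depended on the scaling. Grn no longer passed when library 2 or 3 of either genotype was left out (edgeR adjusted p = 0.0987 to 0.196). Its call or sign changed in 11 of 15 alternative settings.

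Glb1 (NCBI Gene 12091), the acid beta-galactosidase that is also the enzyme stained as a senescence marker, did not pass. It was at 61.9, 40.6 and 47.8 FPKM in control and at 44.6, 37.1 and 39.0 FPKM in TgAPPsweOCN. The genotypes overlapped, and control library 1 stood above all others. Its log2 fold change was -0.10 (SE 0.15, edgeR adjusted p = 0.583), and it turned to 0.08 without control library 1. Part of its estimated counts was fractional, as for Asah1, Ppt1, Npc1 and Atp6ap2, which means that some reads were shared between transcripts of different genes. Gusb, the beta-glucuronidase, had a log2 fold change of -0.19 (edgeR adjusted p = 0.0677), and it passed at -0.26 when library 1 of either genotype was left out.

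Other lysosomal genes that were not members moved in both directions. Of 32 further hydrolases and their lumenal partners, 14 rose and 15 fell, against 32.5% and 31.5% of all genes tested. The other 3 did not pass, and the list's median log2 fold change was 0.03. The largest rise was that of Acp5, the acid phosphatase of osteoclasts and macrophages, from 4.68 ± 1.09 to 34.7 ± 11.9 FPKM (log2 fold change 3.12). Plbd2, a protein related to phospholipase B, rose by 1.53. The largest falls were those of Sgsh, the heparan sulfamidase, at -1.39, Galc, the galactosylceramidase, at -1.23, and Pld3, a nuclease of the endolysosome, at -1.05. These 5 genes kept their calls in 15 alternative settings.

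Of 27 further membrane genes, 8 rose and 14 fell, against 32.5% and 31.5% of all genes tested. The other 5 did not pass, and the list's median log2 fold change was -0.25. Slc11a1, the phagosomal metal transporter NRAMP1, rose from 146 ± 6.22 to 454 ± 10.5 FPKM (log2 fold change 1.86), followed by the channel Mcoln2 at 0.84 and the chloride channel Mfsd8 at 0.75. The channel Mcoln3 fell from 5.78 ± 2.55 to 0.640 ± 0.207 FPKM (log2 fold change -3.03). Gpnmb, a glycoprotein abundant in lipid-laden macrophages, fell from 1222 ± 232 to 236 ± 25.5 FPKM (log2 fold change -2.16), and Sidt2, a membrane protein linked to RNA uptake, fell by 1.2.

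**Figure D5:**
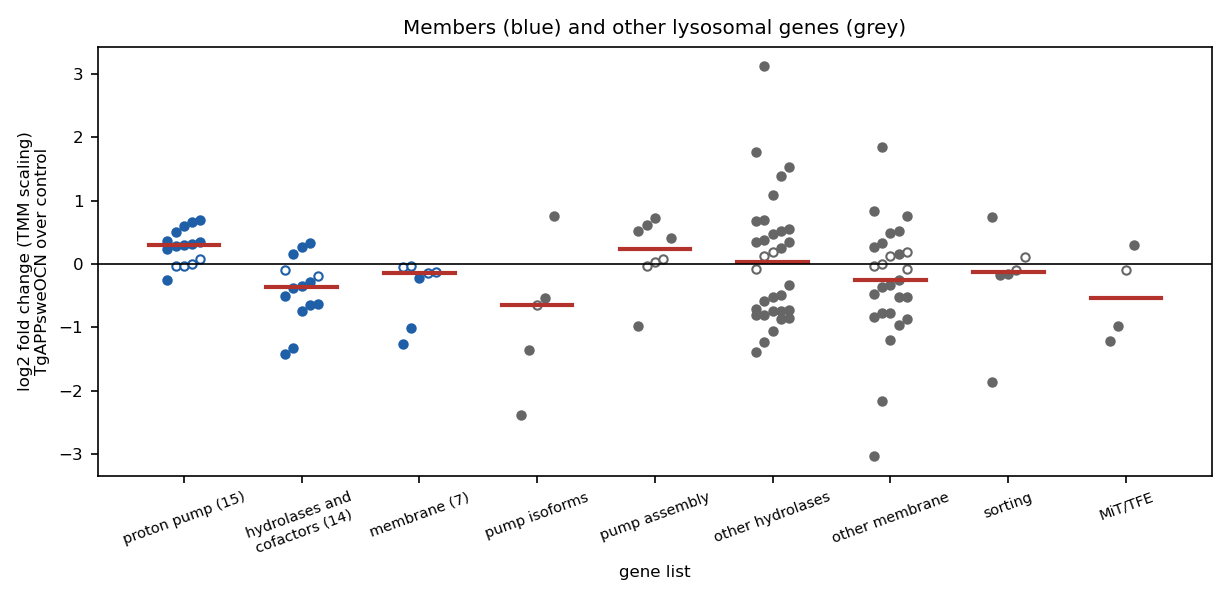
Log2 fold changes after TMM (y axis) are shown for the members by class (blue) and for other lysosomal lists (grey), with filled points for genes past the test and a red bar at each list's median. The pump median lies at 0.30 and the lumenal median at -0.37, while the 32 other hydrolases spread on both sides of 0; with scaling by library size only all points lie lower by about the same amount, and the median of the other hydrolases turns to -0.19.

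Genes for carrying hydrolases to the lysosome numbered 6, of which 1 rose and 3 fell (32.5% and 31.5% of all genes tested). M6pr, a mannose 6-phosphate receptor, rose by 0.74, from 193 ± 7.54 to 277 ± 24.7 FPKM. Sort1, the alternative receptor sortilin, fell by 1.86, from 14.5 ± 1.69 to 3.44 ± 0.188 FPKM. Gnptg and Nagpa, which make the mannose 6-phosphate tag, fell by 0.17 and 0.15 (edgeR adjusted p = 0.0353 and 0.0468), and these small falls lost their calls in 8 and 10 of 15 alternative settings.

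The transcription factors of the TFEB family did not move together. Tfeb was at 32.5, 33.1 and 29.9 FPKM in control and at 14.5, 13.2 and 13.6 FPKM in TgAPPsweOCN, without overlap (log2 fold change -0.98, SE 0.07, edgeR adjusted p = 7.73e-06). Tfec, a form expressed in macrophages, fell from 15.5 ± 2.32 to 5.74 ± 0.274 FPKM (log2 fold change -1.21, edgeR adjusted p = 2.62e-05). Tfe3, the most abundant of the 4, rose by 0.30, from 73.5 ± 3.18 to 77.5 ± 1.36 FPKM, with overlapping FPKM and no pass under scaling by library size only. Mitf had a log2 fold change of -0.09 and did not pass (edgeR adjusted p = 0.227).

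Promoter sequences were examined because these factors bind the letters TCACGTGA, the core of the motif shared by many lysosomal genes. RefSeq windows (GRCm38.p6) from 250 bases before to 50 bases after the start site were at hand for 30 of 36 members. Of these, 5 held TCACGTGA (16.7%), against 220 of 10117 tested genes with a window (2.18%) and 0.974% of all 32851 windows. The shorter CACGTG, which lies within TCACGTGA, was present in 9 of 30 members (30%), in 11.7% of tested genes and in 7.15% of all windows. Each motif reads the same on both strands. These shares are descriptions and were not tested.

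The 5 stretches are shown 5′ to 3′ on the gene's strand with TCACGTGA in capitals, since they place the motif in genes of all 3 classes. The first lies across the start site of Atp6v0d1 (chr8:105566050-105566079, minus strand), with the motif beginning at base -4. That of Atp6v0e (chr17:26676387-26676416, plus strand) begins at base 2. The stretch of Atp6v1a (chr16:44139354-44139421, minus strand) is upstream, with the motif at -132. In Mcoln1 (chr8:3500462-3500491, plus strand) it begins at -46, and in Gla (chrX:134601196-134601255, minus strand) at -228.
Atp6v0d1: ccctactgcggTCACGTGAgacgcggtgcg
Atp6v0e: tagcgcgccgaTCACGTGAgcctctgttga
Atp6v1a: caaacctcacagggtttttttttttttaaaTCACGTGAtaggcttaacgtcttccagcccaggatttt
Mcoln1: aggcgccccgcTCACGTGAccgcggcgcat
Gla: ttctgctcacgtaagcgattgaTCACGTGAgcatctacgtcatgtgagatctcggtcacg

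The genes with the motif did not share 1 direction. Atp6v0d1, Atp6v0e and Atp6v1a rose by 0.70, 0.35 and 0.32, Mcoln1 was at -0.04 without passing, and Gla fell by 0.65. By class, TCACGTGA was present in 3 of 11 pump genes, 1 of 6 membrane genes and 1 of 13 lumenal genes with a window. By call, it was present in 3 of 9 genes that rose, 1 of 11 that fell and 1 of 10 that did not pass.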

How the data were processed

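Cells were sorted and sequenced on DNBSEQ; the submitters' processing notes name HISAT2 2.0.4, Bowtie2 2.2.5, RSEM 1.2.12, DESeq2 1.4.5 and the build mm10. The authors deposited estimated counts per gene, further than 0.001 from a whole number in 13.3% to 14.4% of genes per library, and FPKM rounded to 2 decimals. A further deposited table of the authors' own log ratios and p-values was not used. Raw counts had been planned for; the estimated counts were rounded to whole numbers.

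Genes were filtered with filterByExpr, scaled by TMM and tested with edgeR 4.0.16 in R 4.3.3 (quasi-likelihood, genotype only, Benjamini-Hochberg over 12701 genes, biological coefficient of variation 9.85%). A floor of 3 counts equals 0.136 to 0.155 CPM and covers counting error only. No source used here ties each library to a separate mouse, so p-values measure only the spread between libraries, which may be technical. Alternatives used DESeq2 1.42.0, RLE, library size only, other filters, a replicate block, limma 3.58.1 on log2(FPKM + 1) and log2(FPKM + 0.1), and each library left out. A fit without the libraries numbered 3, and the check that led to it, were added after their values were seen. The test was checked on simulated data, where a first criterion on recovery of changed genes was missed because of genes with low counts. It was then replaced by one that asked for recovery at higher counts only, with no change to the test.

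The members and lists were chosen with earlier results of these data known. All members are named; full values are given for log2 fold changes of 1 or more in size, for the 2 largest rises and falls past the test in each class, and for Glb1 and Lamp1. Of other lists, every pump isoform and TFEB relative and otherwise the 3 largest rises and falls are named, except 1 that is not reported here. Values of some further members are given by mean and SD. Plots were drawn with matplotlib 3.10.9. Coordinates are those of RefSeq for GRCm38.p6, the assembly also called mm10.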

Additional observations from a re-analysis of the deposited data

How the results depend on the processing

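Of the 36 members, 15 kept their call and sign in all 15 alternative settings and 21 changed in at least one. Scaling by library size only, log2(FPKM + 1) and log2(FPKM + 0.1) shared the largest effect, since none of them levels the bulk of genes. Under each of the 3, 4 pump genes rose instead of 10 and 4 fell instead of 1, 7 membrane genes fell instead of 3, and 0 lumenal genes rose instead of 3. The pump median was then 0.086, 0.090 and 0.091 and the lumenal median -0.58 in each, Atp6ap2 turned to -0.13 in each, and Grn turned to -0.054, -0.055 and -0.055. With log2(FPKM + 1), 593 genes of the whole table were up-regulated at a log2 fold change of 1 instead of 1130. Without the libraries numbered 3, which leaves 2 per genotype, 5 pump genes rose and 0 fell, and 1 lumenal gene rose. When each library was left out in turn, the pump median ranged from 0.24 to 0.36 and the lumenal median from -0.39 to -0.36. Atp6ap1 was at 0.013 with DESeq2 and 0.0079 with RLE. Several values near 0 changed sign when 1 library was left out, in the ranges -0.052 to 0.056 for Atp6ap1, -0.081 to 0.0042 for Atp6v0b, -0.083 to 0.0079 for Atp6v1f, -0.24 to 0.076 for Glb1, -0.093 to 9.7e-05 for Lamp2 and -0.10 to 0.0014 for Mcoln1. The cause of these changes was not tested. With the replicate block, 9 pump genes rose instead of 10 and 2 lumenal genes instead of 3, since Atp6v1c1 and Grn no longer passed (edgeR adjusted p = 0.0536 and 0.0515), and no other member changed its call. Same-numbered libraries correlated by 0.0127, 0.0066 and 0.141 in their deviations from the group means, and control library 1 correlated best with TgAPPsweOCN library 2, so the numbers were not taken to pair the samples. Depth did not limit the members, since the lowest count of any was 1014.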

Other observations

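Enzymes that act on the same kind of substrate did not change as 1 block. These genes were named after their values were seen. Among sphingolipid genes, Gm2a, the activator protein for ganglioside GM2, fell from 81.1 ± 3.95 to 41.8 ± 0.416 FPKM (log2 fold change -0.74, edgeR adjusted p = 8.59e-06). The acid sphingomyelinase Smpd1 rose by 0.52. Among sulfatases, Sgsh and Arsb fell by 1.39 and 0.86, while Galns rose by 1.39. All of these calls held in 15 alternative settings.

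Hgsnat, a membrane enzyme of heparan sulfate breakdown, varied more within each genotype than between them. It was at 28.4, 85.9 and 62.6 FPKM in control libraries 1, 2 and 3 and at 28.3, 89.7 and 57.6 FPKM in the TgAPPsweOCN libraries. In both genotypes library 1 was lowest and library 2 highest. Its log2 fold change was 0.20 (SE 0.44, edgeR adjusted p = 0.717). With the replicate number as a block the edgeR adjusted p was 0.0277, and the sign changed in 5 of 15 alternative settings, with log2 fold changes from -0.23 to 0.57. It was chosen after its values were seen, and no reason for the spread was tested.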
